A study of Mus musculus with 285 samples.

Results

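Fabp1, Fgg, F2, Ahsg, Hrg and Ces1c are genes whose textbook site of expression is the hepatocyte, and all of them were measured here in mouse muscle. The 6 genes were chosen by symbol, with wide variation of such genes among these muscle samples already known. They are read by 7 probes, 2 of them for Ahsg, of 23510 probes kept and 11622 named genes. The values asked about are those in all 285 samples: whether the genes were high in the same mice, and in the same proportion. These values led to the choice of the genes, so they are given below as a description, with no test.

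The samples were muscle RNA of 285 F2 mice, males and females, the grandchildren of a cross between C57BL/6J and C3H/HeJ mice that was made in both directions. The mice were 20 weeks old at death and had been fasted for 12 hours. During the last 12 weeks their food was a Western diet with 42% fat and 0.15% cholesterol, which replaced chow with 4% fat at the age of 8 weeks. No treatment or diet separated the mice. F2 mice of such a cross differ in genotype, but the labels give no genotype per mouse. They also name neither the muscle nor the sex of a mouse. The mice formed 1 group, told apart by a number between 51 and 362.

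Each array compared the RNA of 1 mouse, labelled with Cy3, with a pool, labelled with Cy5, to which all samples had given RNA in equal amounts. The deposited ratios were taken to be log10 values of mouse over pool and are given here as log2, so 0 is the level of the pool and 1 is a 2-fold excess over it. The labels state neither the logarithm nor the sign. The mean linear ratio over the mice was 0.796 for the Y-linked gene Eif2s3y in this direction and 23.2 with the sign turned. For the Y-linked gene Kdm5d it was 0.942 and 3.43, and mouse over pool was kept. The 6 liver genes do not bear this choice out, as the mean linear ratio of 5 of them lay nearer 1 with the sign turned. With the sign turned, every high value below would be a low one. In another base all log2 values would shrink by 1 common factor, with correlations and calls as they are. Values were bounded at 6.64 on the log2 scale, which is 100-fold. The SD over the features of an array had a median of 0.29 on the log2 scale, from 0.18 to 0.62. Pairs of arrays correlated with r from -0.745 to 0.801, and 2.48% of pairs lay below -0.3. A ratio to a pool gives no level, so no gene can be said to be absent, the muscle label cannot be checked by the level of muscle genes, and no gene's level is set against another's. In RNA of whole tissue, fewer cells of a type and less RNA per cell cannot be told apart.

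Hepatocytes make most proteins of blood plasma. Fgg encodes the gamma chain of fibrinogen, the protein that forms the mesh of a clot, and F2 encodes prothrombin, whose active form thrombin cuts fibrinogen. Ahsg encodes fetuin-A, a plasma protein that keeps calcium phosphate in solution. Hrg encodes histidine-rich glycoprotein, which binds heparin, plasminogen and other partners in plasma. Ces1c encodes a carboxylesterase that mouse liver secretes into plasma. Fabp1, the liver fatty acid binding protein, is the exception in the set, because it stays in the cytosol, where it carries fatty acids. It is also expressed in the small intestine. In liver these genes are read under transcription factors that act on many hepatocyte genes together, among them HNF1, HNF4 and C/EBP.

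The genes lie on 5 chromosomes of the GRCm38.p6 assembly. Fabp1 is at chr6:71199879-71205034 on the plus strand, Fgg at chr3:83007724-83015056 on the plus strand, F2 at chr2:91612397-91636457 on the minus strand and Ces1c at chr8:93099015-93131283 on the minus strand. Ahsg, at chr16:22892015-22899451, and Hrg, at chr16:22951072-22961659, lie near each other on the plus strand of chromosome 16. The 250 bases before the annotated start of each gene, from RefSeq, were searched on both strands for a motif of HNF1 (GTTAAT), a core of the HNF4 site (TCAAAG) and the C/EBP pattern TTGCNNAA. All 6 genes moved together, as given below. The 4 promoters with a match are printed with the matches in capitals, each 5′ to 3′ on the strand of its gene. They cover chr6:71199629-71199878 (plus), chr16:22891765-22892014 (plus), chr16:22950822-22951071 (plus) and chr8:93131284-93131533 (minus).
Fabp1: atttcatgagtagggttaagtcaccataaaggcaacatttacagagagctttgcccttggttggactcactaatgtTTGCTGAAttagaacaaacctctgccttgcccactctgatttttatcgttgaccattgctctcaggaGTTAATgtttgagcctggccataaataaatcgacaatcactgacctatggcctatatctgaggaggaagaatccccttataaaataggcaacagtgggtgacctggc
Ahsg: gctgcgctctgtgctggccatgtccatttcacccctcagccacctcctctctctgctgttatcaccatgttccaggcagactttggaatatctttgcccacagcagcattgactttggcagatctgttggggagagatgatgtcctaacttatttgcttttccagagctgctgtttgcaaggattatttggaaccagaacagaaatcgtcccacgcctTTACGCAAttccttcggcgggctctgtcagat
Hrg: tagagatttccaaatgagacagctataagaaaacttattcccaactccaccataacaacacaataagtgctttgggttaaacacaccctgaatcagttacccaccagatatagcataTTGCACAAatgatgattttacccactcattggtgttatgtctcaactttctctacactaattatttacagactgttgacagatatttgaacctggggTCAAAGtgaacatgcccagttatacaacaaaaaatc
Ces1c: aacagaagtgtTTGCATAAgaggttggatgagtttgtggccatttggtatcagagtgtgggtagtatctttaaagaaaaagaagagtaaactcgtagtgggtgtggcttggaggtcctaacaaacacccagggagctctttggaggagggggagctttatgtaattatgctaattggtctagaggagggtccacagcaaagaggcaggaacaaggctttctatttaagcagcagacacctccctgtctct
The C/EBP pattern was found in all 4 of these, 174 to 167 bases before the start of Fabp1, 133 to 126 before that of Hrg, 239 to 232 before that of Ces1c and, on the reverse strand, 32 to 25 before that of Ahsg. The HNF1 motif was found in Fabp1, 107 to 102 bases before the start, and the HNF4 core in Hrg, 36 to 31 bases before it. Of 32851 mouse promoter windows of this length, 9.56% held the C/EBP pattern, 6.43% the HNF1 motif and 13.8% the HNF4 core. Among 84 listed hepatocyte genes with a window, 14, 25 and 22 held them, in that order. The patterns were short and were chosen with these sequences in view. The windows of Fgg and F2 held none of the 3.

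Fabp1 varied most of the 6 genes. Its log2 ratio had a minimum of -4.89, a median of -1.56 and a maximum of 6.64 over the 285 mice, an SD of 2.23, the fourth largest of all 23510 probes. It was at least 2-fold above the pool in 46 mice and at least 2-fold below it in 176, and it sat at the upper bound in mice 292 and 355, so its true value there may be higher. Most mice were thus low and a minority high. The median of a gene's SD over all features was 0.21.

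The plasma protein genes had the same lopsided spread over a narrower range. Fgg, the fibrinogen gamma chain, ran from -3.07 over a median of -0.83 to 6.27 (SD 1.81), with 54 mice at 1 or more and 130 at -1 or less. F2, prothrombin, ran from -2.25 over a median of -0.52 to 6.19 (SD 1.30), with 38 mice at 1 or more and 82 at -1 or less. Both clotting genes had their maximum in mouse 292. Hrg had the smallest SD of the 6, 1.10, and ran from -1.93 over a median of -0.41 to 6.38, with 36 mice at 1 or more and 6 at -1 or less. Ces1c, the plasma carboxylesterase, ran from -3.32 over a median of -1.01 to 6.48 (SD 1.63), with 43 mice at 1 or more and 146 at -1 or less. The maxima of these 4 genes were 73.0 to 89.2-fold above the pool.

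The 2 probes of Ahsg did not give the same picture. The probe named after the transcript NM_013465 ran from -1.88 over a median of -0.97 to 5.64 (SD 1.40), with 40 mice at 1 or more and 140 at -1 or less. The probe named after the sequence AI046426 stayed between -0.68 and 0.56, with a median of -0.07 and an SD of 0.23, and no mouse reached 2-fold in either direction. Its SD exceeded that of 55.3% of all probes. Its Pearson r with the 6 other probes lay between -0.0893 and 0.00939 over 285 mice. The probe sequences were not used here, so which part of the gene it reads was not tested. In the descriptions below Ahsg stands for the NM_013465 probe, with which the genes have 6 probes, 1 each.

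**Figure D1:**
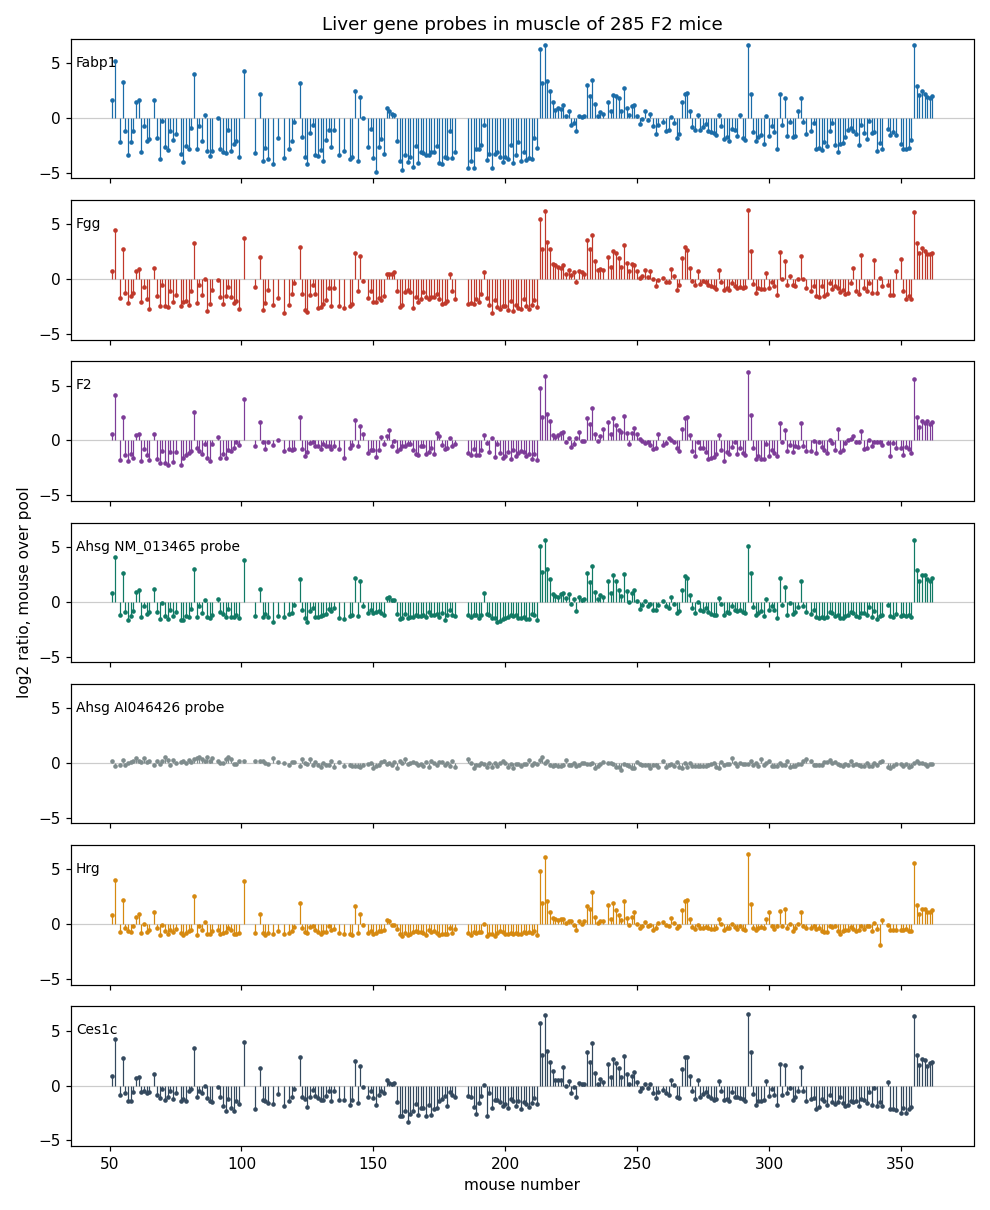
Log2 ratio of mouse over pool (vertical axis) for each of the 7 probes against mouse number (horizontal axis), 1 point and stem per mouse, 285 mice. The 6 probes other than AI046426 are high in the same mice, with raised runs at 211 to 250 and 351 to 362, while the AI046426 probe of Ahsg stays between -0.68 and 0.56.

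The genes were high in the same mice. Of 60 mice in which at least 1 of the 6 reached 2-fold, 33 had all 6 at 2-fold or more. Of 16 mice in which at least 1 reached 8-fold, 6 had all 6 there. The 15 pairs of genes had Pearson r from 0.83 to 0.96 over the 285 mice, with a median of 0.90, and Spearman rho from 0.62 to 0.92, with a median of 0.85. Ahsg and Ces1c were the closest pair (r = 0.96), and Fabp1 and F2 the least close (r = 0.83). The lowest rho, 0.62, was that of F2 and Ces1c. All these ratios share the pool, and both values of a pair come from the same array. Without the 2 mice farthest from the median the 15 values of r ran from 0.81 to 0.96.

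In 8 mice the mean log2 ratio of the 6 genes was 3 or more. Mouse 292 had 6.64 for Fabp1, 6.27 for Fgg, 6.19 for F2, 5.11 for Ahsg, 6.38 for Hrg and 6.48 for Ces1c. Mouse 215 had 6.63, 6.22, 5.89, 5.59, 6.13 and 6.41 for the same genes in that order, and mouse 355 had 6.64, 6.16, 5.60, 5.64, 5.55 and 6.36. In these 3 mice every gene was above 5, and Fabp1 was at the bound of the file or just below it. Mouse 213 had 6.27 for Fabp1, 5.49 for Fgg, 4.77 for F2, 5.05 for Ahsg, 4.86 for Hrg and 5.74 for Ces1c. Mice 52, 101, 233 and 82 followed with means of the 6 genes of 4.35, 3.91, 3.42 and 3.13. Next below the limit was mouse 216, with a mean of 2.89. At the other end, mouse 161 had the lowest mean, -2.17, with Fabp1 at -4.78 and F2 at -0.49. The AI046426 probe of Ahsg was at -0.07 in mouse 292.

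**Figure D2:**
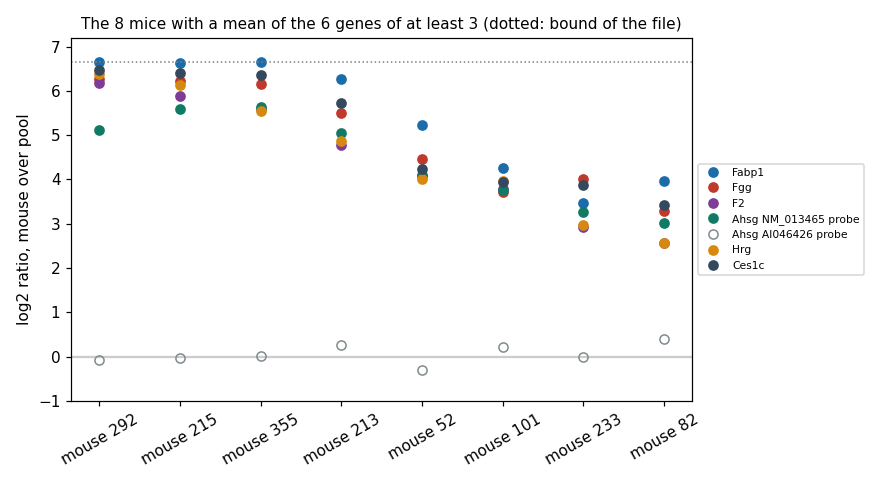
Log2 ratio of mouse over pool (vertical axis) of each probe in the 8 mice whose mean over the 6 genes was at least 3, ordered by that mean, with the bound of the file at 6.64 dotted. Filled points of a mouse lie within 0.540 to 1.54 of each other, and the open points, the AI046426 probe of Ahsg, lie near 0.

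These 8 mice held a large share of what the arrays saw of the genes. Of the summed linear ratios over 285 mice, they gave 62.4% for Fabp1, 55.4% for Ces1c, 49.0% for Hrg, 47.8% for Fgg, 47.2% for F2 and 42.3% for Ahsg, against 3.03% for the AI046426 probe. With the sign turned the same mice would give 0.0192 to 0.142% for the 6 genes, so these shares hold for mouse over pool alone. The mean linear ratio, which would be 1 if the pool were the mean of the mice, was 1.77 to 2.58 for the 6 genes over all mice and 0.998 to 1.30 without the 8. With the sign turned it was 1.25 for Hrg, 1.55 for F2, 1.74 for Ahsg, 2.12 for Ces1c, 2.32 for Fgg and 5.07 for Fabp1. The pairwise r did not rest on these mice, since it ran from 0.76 to 0.94 without them, with a median of 0.90.

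The genes did not keep one fixed proportion over all mice. Within a mouse, the range between the highest and the lowest of the 6 log2 values was 0.540 to 1.54 in the 8 highest mice, at most 2.90-fold, while each gene there was at 2.56 or more. In 2 of these mice Fabp1 was at the bound, which can hide a wider range. Over all 285 mice this range was 0.203 to 4.73, at most 26.5-fold. The widest range was that of mouse 195, where Fabp1 was at -4.53 and F2 at 0.20. The order of the genes turned between the ends: Fabp1 was the lowest of the 6 in 161 of 285 mice and Hrg the highest in 118. In the 33 mice with all 6 at 2-fold or more, Fgg was the highest in 20 and Fabp1 in 12, and Hrg was the lowest in 21.

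The slopes show the same difference between genes. Each gene was set against the mean of the other 5 by the reduced major axis, whose slope is the ratio of the SDs, so that 1 means equal steps. On the log2 scale the slope was 1.60 for Fabp1, 1.23 for Fgg, 1.08 for Ces1c, 0.90 for Ahsg, 0.82 for F2 and 0.69 for Hrg. On the linear scale, which the 8 highest mice govern, it was 1.58 for Fabp1, 1.23 for Ces1c, 1.05 for Fgg, 0.892 for Hrg, 0.791 for F2 and 0.610 for Ahsg. Fabp1 thus moved in larger steps than the others on both scales, and Ahsg, F2 and Hrg in smaller ones. The linear values of a gene had r from 0.967 for Ahsg to 0.998 for Ces1c with the mean of the other 5. The 8 highest mice govern these r as well. The low ends differed in width. The first quartile and the 5th percentile of log2 values were -0.72 and -0.93 for Hrg, and -1.29 and -1.55 for Ahsg. They were -1.08 and -1.70 for F2, -1.48 and -2.27 for Ces1c, -1.78 and -2.65 for Fgg, and -2.91 and -3.98 for Fabp1. Whether a lower limit of the signal shaped these low values, and with them the slopes, was not tested.

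**Figure D3:**
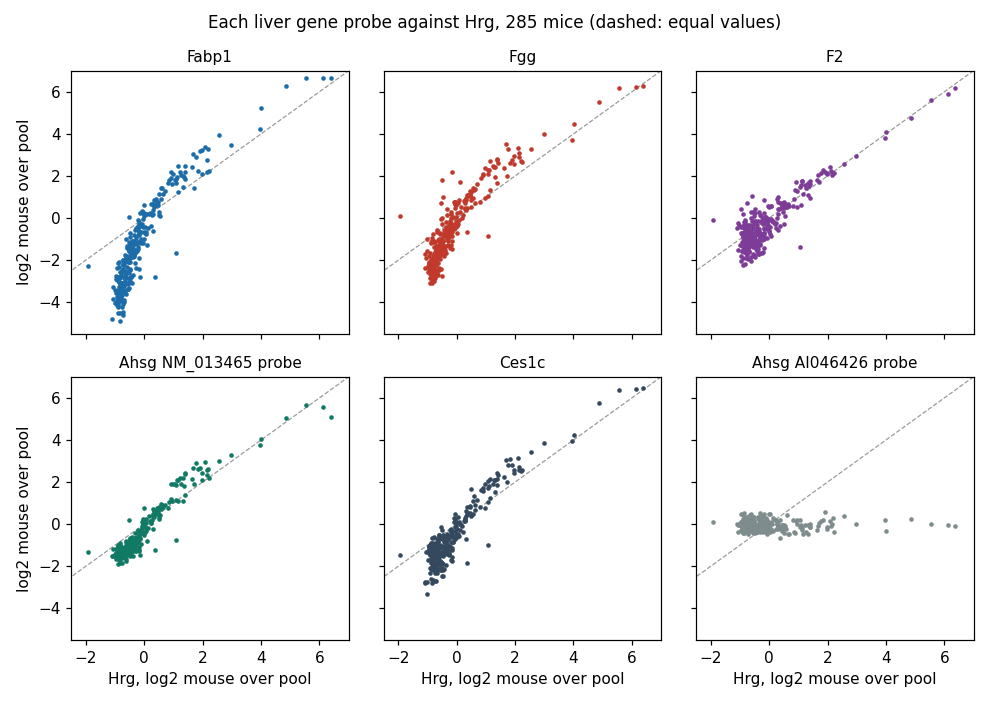
Log2 ratio of each probe (vertical axes) against that of Hrg (horizontal axes), 1 point per mouse, 285 mice, with equal values dashed. At high Hrg the points of Fabp1, Fgg, F2 and Ces1c lie near the dashed line or above it and Ahsg is below it in mouse 292 (5.11 against 6.38), at low Hrg many points of Fabp1, Fgg and Ces1c drop below it, and the AI046426 probe of Ahsg does not follow.

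High mice were not spread evenly over the mouse numbers. In runs of 20 numbers, the 6 genes had their highest medians at 351 to 362 (12 mice), with 2.34 for Fgg, 2.01 for Ahsg, 1.98 for Ces1c, 1.97 for Fabp1, 1.55 for F2 and 1.09 for Hrg. At 231 to 250 the medians were 0.69 for Hrg to 1.44 for Fgg, and at 211 to 230 they were 0.35 for Hrg to 0.94 for Fgg. The mean of the 6 genes was 1 or more in 8, 10 and 6 mice of these runs, in that order. Fabp1, Fgg, Ahsg and Hrg had their lowest medians at 191 to 210, with -3.57 for Fabp1 and -0.83 for Hrg. Mice with neighbouring numbers resembled each other, with r from 0.42 to 0.57 over 262 neighbouring pairs for the 6 genes. The labels do not say what a number stands for, so date, litter, cage or dissection cannot be told apart from it. Outside numbers 211 to 270 and 351 to 362 the 6 genes still had a median pairwise r of 0.843, with the 2 Ahsg probes averaged. Their r with the SD of the array was 0.170 to 0.267.

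Genes other than the 6 were not used to choose them, so they were tested. Each of the other features was fitted along each of the 6 genes with limma, and a feature was called rising or falling at a Benjamini-Hochberg adjusted p below 0.05 over 21511 features and an absolute r of at least 0.3. Ahsg entered as the mean of its 2 probes. The lists of cell type genes were written with earlier results of these data known. In the lists of hepatocyte genes 98 genes other than the 6 were measured. Along Fabp1, 72 of the 98 rose, against 1.32% of all features. Along Fgg, 71 of the 98 rose, against 1.71% of all features, and 1 fell, Onecut1 (r = -0.32), which encodes a hepatocyte nuclear factor, where 1.79% of all features fell. Along F2, 76 of the 98 rose, against 1.69% of all features. Along Ahsg, 77 rose, against 1.32%. Along Hrg, 80 rose, against 1.55%. Along Ces1c, 75 rose, against 1.32%. The median r of the 98 was 0.54 to 0.73 along the 6 genes, where the median of all features was -0.03 to -0.01. Without the 8 highest mice 52 to 60 of the 98 rose along each gene, where 160 (Ahsg) to 557 (Fgg) of 21511 features rose.

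All 6 genes shared most of these followers. With the Ahsg probes averaged, the 6 correlated with each other at r from 0.83 to 0.95, so much of this sharing follows from their own values. 234 features rose with each of the 6, which is 1.09% of features, and 71 of them were listed hepatocyte genes, 72.4% of that list. These features were 64.5% of the features rising with Fgg, 65.2% of those with F2, 71.3% of those with Hrg and 84.2% of those with Fabp1. Of the 234, 74 were unnamed probes. No feature fell with all 6, and only 6 features fell with Hrg.

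The plasma protein genes had the highest median r of the lists. Of 47 measured genes for plasma proteins, 38 rose with Fabp1 and with Fgg, 40 with F2 and with Ces1c, 41 with Ahsg and 43 with Hrg, and the median of their mean r was 0.72. Mug2, a murinoglobulin that traps proteases in rodent plasma, was the named gene most like the mean of the 6 (r = 0.97 over 285 mice). It ran from -1.82 over a median of -0.68 to 5.66, and its log2 ratio rose by 1.09 ± 0.02 (SE) per log2 unit of Hrg (limma, adjusted p = 2.60e-141). Next were Apoa5, an apolipoprotein that promotes triglyceride clearance (r = 0.96), and Apoa2, a protein of high-density lipoprotein (r = 0.96). Plg, the clot-dissolving plasminogen, had r = 0.94 with the mean of the 6 and r = 0.96 with Hrg.

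The other plasma proteins among the 15 most similar genes covered several systems. Apoh binds phospholipids and Mbl2 is a lectin of innate immunity (both r = 0.92), Afm carries vitamin E and Serpina1d is an antitrypsin (both r = 0.91), C8a (r = 0.88) and Hc (r = 0.86) are complement components, Proc is the anticoagulant protein C (r = 0.87), and Igfbp1 binds insulin-like growth factors (r = 0.86). The antitrypsin genes of the mouse are close copies of each other, and their probes may share signal, which was not tested. Serpina1a, picked out after its values were seen, had a mean r of 0.00798 and rose with none of the 6. Hp, haptoglobin, stood apart from this list: its mean r with the 6 genes was -0.02, although its SD among mice was 1.18. It rose with none of the 6.

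Enzymes of liver metabolism followed in large part. Of 42 measured enzymes, transporters and receptors, 30 rose with Fabp1, 29 with Fgg, 32 with F2 and with Ahsg, 33 with Hrg and 31 with Ces1c, with a median mean r of 0.59. Fbp1, a key enzyme of gluconeogenesis, had r = 0.94 with the mean of the 6, and Mat1a, which makes S-adenosylmethionine in liver, had 0.88. Cyp2d9, a cytochrome P450, had r from 0.78 with Fabp1 to 0.88 with Hrg. Aldh8a1, an aldehyde dehydrogenase that was on no list, had r = 0.87 with the mean of the 6. Slc10a1, the bile acid uptake transporter, had a mean r of -0.06 and rose with none.

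Of 9 nuclear factors, 4 rose with each of the 6 genes, along which 1.32 to 1.71% of all features rose. These included Foxa2 (r = 0.52 with Fabp1 to 0.72 with Hrg), the bile acid receptor gene Nr1h4 (0.45 to 0.65) and Foxa3 (0.43 with Fgg to 0.64 with Hrg). Foxa2 rose by 0.08 log2 units per log2 unit of Fabp1, which had the largest SD of the 6. The SDs of Foxa2, Nr1h4 and Foxa3 were 0.36, 0.24 and 0.27, and their highest log2 ratios 3.25, 2.48 and 2.53. The other 5 nuclear factors rose with none of the 6, and the median of the mean r of the 9 was 0.18. Among those 5 was Hnf4a, which encodes HNF4 and was picked out after its values were seen, with a mean r of 0.00139 and an SD of 0.10. Over all 3 hepatocyte lists, 17 of the 98 genes rose with none.

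The lists of other liver cells and of other organs were short. Along the 6 genes 1.32 to 1.71% of all features rose, so a short list with no rising gene is near that share. Of 7 measured genes of Kupffer cells and liver endothelium, 1 rose, Cd5l with Hrg (r = 0.30), and none rose with the other 5 genes. Along Hrg 1.55% of all features rose, so 1 of 7 is a larger share, though it rests on 1 gene. Clec4f, a Kupffer cell lectin, had a mean r of 0.19 with the 6. Of 10 genes of the small intestine, 3 rose with each of Fabp1, F2, Ahsg, Hrg and Ces1c and 2 with Fgg. They were Fabp2, Apoa4 and Apob, with mean r of 0.64, 0.40 and 0.38, and Apob and Apoa4 are also read in mouse liver. The 7 others, with Lct, the lactase gene, lowest, rose with none. None of 9 kidney tubule genes and none of 5 exocrine pancreas genes rose with any of the 6.

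**Figure D4:**
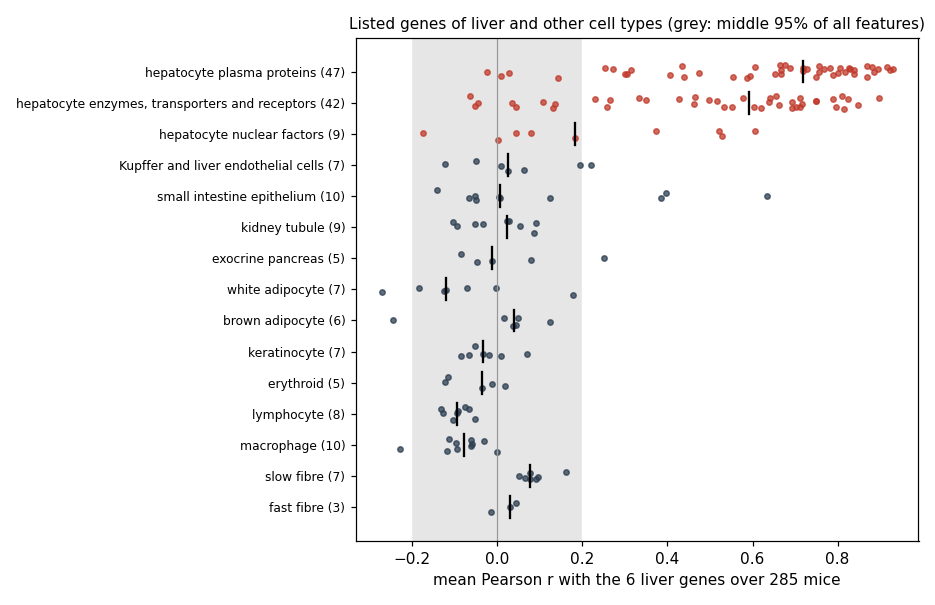
Mean Pearson r with the 6 liver genes over 285 mice (horizontal axis) for each measured gene of 15 lists (rows, number of genes in brackets), with the list medians as bars and the middle 95% of all features shaded. Hepatocyte plasma proteins and enzymes have medians of 0.72 and 0.59, outside the shaded range, while hepatocyte nuclear factors, at 0.18, and the lists of other cell types have medians inside it.

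Lists of other cells that muscle samples can hold were short, so finding no rising gene among them is near the share over all features. None of the measured genes of white adipocytes (7), brown adipocytes (6), keratinocytes (7), erythroid cells (5), lymphocytes (8) or macrophages (10) rose with any of the 6, where 1.32 to 1.71% of all features rose. Cox7a1, on the brown adipocyte list and also read in muscle, fell with Fgg (r = -0.37), where 1.79% of features fell, and the macrophage gene Cd68 fell with Fabp1 (r = -0.31), where 1.06% of features fell, and with Fgg (r = -0.35). Of 3 fast fibre genes none rose or fell. The part of any of these cells in the liver gene values was not tested.

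In the 8 highest mice many other listed hepatocyte genes were above the pool, although in mice 233, 101 and 82 fewer of them reached 2-fold than did not. Of the 98 listed genes, 79 were at least 2-fold above the pool in mouse 292, 77 in mouse 215, 69 in mouse 213, 68 in mouse 355, 54 in mouse 52, 46 in mouse 233, 44 in mouse 101 and 37 in mouse 82. Among all features this share was 0.656 to 2.92% in these mice. The median over all 285 mice was 1 of 98, and the highest count among mice outside the 8 was 32, in mouse 216. In the same 8 mice 0 to 2 of 7 Kupffer and endothelial genes, 0 to 4 of 10 intestinal genes and 0 to 1 of 9 kidney genes reached 2-fold.

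Close relatives of the 6 genes did not all follow. Ces1e and Ces1g, which belong to the carboxylesterase 1 family like Ces1c, rose with all 6 genes (mean r 0.64 and 0.51), while Ces1d had a mean r of 0.06 and rose with none. Similar sequences in this family may share signal. Among the fatty acid binding proteins, Fabp2 rose with all 6. Fabp3, the muscle form, and Fabp4, the adipocyte form, both had a mean r of -0.07, and Fabp5 of -0.21. Fetub, a fetuin gene of the same family as Ahsg, is also a neighbour of Ahsg and Hrg on the genome. Its mean r was 0.03 and its SD 0.19.

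The number of falling features differed between the genes. Along Fgg 1.79% of features fell and along Fabp1 1.06%, against 0.214% along F2, 0.0511% along Ces1c, 0.0372% along Ahsg and 0.0279% along Hrg. The lowest r with Fgg were those of the myosin light chain gene Myl6 (-0.42), the Rab acceptor gene Rabac1 (-0.41) and Dtymk, a nucleotide kinase (-0.41). The lowest with Fabp1 was that of the semaphorin gene Sema6c (-0.39). These counts were not stable. With a smooth trend along mouse number in the fit, 0 features fell with Fabp1 and 6 with Fgg. Among the 142 mice of higher number, 791 fell with Ces1c and 766 with Ahsg, against 11 and 8 over all mice, and 507 fell with Fabp1 and 420 with Fgg. With ranks of the gene in place of its log2 value 556 fell with Hrg, against 6. Which genes have more falling features thus depended on the mice and the scale used.

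F2 rose with the liver genes and also with genes of slow muscle fibres, the fatigue-resistant fibres with their own forms of myosin and troponin. Of 7 measured slow fibre genes, 6 rose with F2, where 1.69% of features rose, and none rose with Fabp1, Fgg, Ahsg, Hrg or Ces1c. Atp2a2, the calcium pump of slow fibres, had r = 0.41 with F2, the light chain gene Myl2 had 0.37 and the heavy chain gene Myh7 had 0.34. Casq2, a calcium store protein, had 0.22 and was not called. Outside numbers 211 to 270 and 351 to 362, 2 of the 7 rose with F2, where 325 of 21511 features rose. Without the 8 highest mice 6 of the 7 rose with F2, where 287 of 21511 features rose.

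The difference between F2 and Hrg was tested by fitting F2 with Hrg as a covariate, a fit added after the values were seen. At equal Hrg, all 7 slow fibre genes rose with F2, with partial r from 0.42 for Casq2 to 0.75 for Myl2, where 2.45% of features rose. Myh7 rose by 2.00 ± 0.13 log2 units (SE) per log2 unit of F2 (limma, adjusted p = 9.77e-36, n = 285). At equal Hrg, 5 of the 98 hepatocyte genes rose with F2. With the genes exchanged, 64 of the 98 hepatocyte genes rose with Hrg at equal F2, where 2.23% of features rose. All 7 slow fibre genes fell with Hrg at equal F2, with partial r from -0.70 to -0.37, where 474 of 21510 features fell. In the same fit with Hrg as covariate, none of the 7 rose with Fabp1 (0.786% of features rose), Fgg (3.85%), Ahsg (1.22%) or Ces1c (0.0465%).

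Most slow fibre genes were low in the same 4 number runs as F2 relative to Hrg. The median of F2 minus Hrg on the log2 scale was -0.82 at 51 to 70, -0.65 at 71 to 90, -0.79 at 271 to 290 and -0.66 at 291 to 310, and between -0.27 and 0.26 in the other runs. The median of Myh7 was -5.13, -3.19, -3.09 and -3.21 in those 4 runs. For 6 of the 7 slow fibre genes the medians of these 4 runs lay below those of all other runs, and Casq2 was the exception. The same fit was made on either side of this split as a description. The split was chosen with the values known, and each side still spans several runs, so these fits cannot separate the relation from mouse number. Among the 76 mice inside these numbers 6 of 7 slow fibre genes rose with F2 at equal Hrg (0.59% of features rose), with a median partial r of 0.60. Among the 209 mice outside them 7 of 7 rose (1.82% of features), with a median partial r of 0.56. Ces5a, a carboxylesterase of another subfamily than Ces1c, rose with F2 (r = 0.38) and with none of the other 5. Whether the F2 probe also reads another transcript was not tested.

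**Figure D5:**
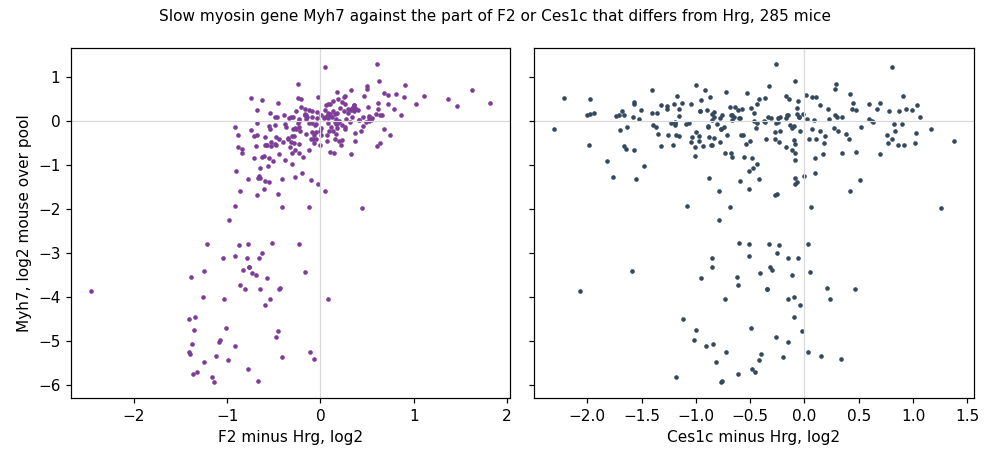
Log2 ratio of the slow myosin gene Myh7 (vertical axis) against F2 minus Hrg (left) and Ces1c minus Hrg (right), both log2, 1 point per mouse, 285 mice. Myh7 is low where F2 minus Hrg is low, and the difference of Ces1c shows no such trend.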

How the data were processed

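The deposited values are log10 ratios of mouse RNA over a common pool on 2-colour arrays, as read from the values. Per the labels' protocols, RNA was extracted on spin columns with DNase treatment, amplified with an aminoallyl kit and labelled with Cy3 for the mouse and Cy5 for the pool. The normalization done by the authors before deposit is not given in the sources used here. Array medians lay between -0.0222 and 0.0173 in log10 units, so the arrays were centred. Of 23560 probes, 23510 were measured on 80% of the arrays or more and kept, and the 0.00181% of values they lacked were filled with the mean of the probe. Named were 13653 probes with 1 symbol, and 48 had several symbols and 9859 none. Probes of one gene were averaged, which gave 11622 named genes and 9890 unnamed probes. The files hold no signal intensities, so the depth behind a ratio is unknown, and the number of arrays limits the precision.

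Values were converted to log2. Fits used limma 3.58.1 in R 4.3.3, with lmFit and eBayes, two-sided, and Benjamini-Hochberg adjustment. All summaries used pandas 2.3.3 and numpy 2.4.6 in Python 3.11.15. The fit was tested on simulated data. Motifs were searched in RefSeq sequence of GRCm38.p6. The members, the gene lists and the tests were chosen with earlier results of these data known. Genes were named by rule: the 6 genes, the 15 genes most like their mean z value, the 3 highest and the lowest of each list by mean r, the 3 highest and 3 lowest by r with each gene, and their paralogs or neighbours. Onecut1 was named because it alone of its lists fell. Replicates are separate mice per the labels, each hybridised in 1 array here. P-values treat the mice as independent, while neighbouring numbers resembled each other, so they are too small to an unknown degree.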

Additional observations from a re-analysis of the deposited data

How the results depend on the processing

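No paired analysis was possible because all mice formed 1 group and a mouse number occurs once. Each of the 66 counts of listed hepatocyte genes under an alternative stayed within 1.5 times its value above, from 52 to 83 of 98. The median pairwise r of the 6 genes, 0.896 with the Ahsg probes averaged, was 0.810 as Spearman rho and 0.843 outside numbers 211 to 270 and 351 to 362, and moved little under the other alternatives. The counts of all features called, rising and falling, moved more. Along Fabp1 (512) they were 989 with its ranks, 280 with a spline of mouse number with 5 df, 1062 in the 142 mice of higher number and 787 without the 21 arrays of outlying spread. Along Fgg (754) they were 1699 with ranks, 309 with the spline, 351 in the 143 mice of lower number, 1146 without those arrays and 1228 without the 8 highest mice. Along F2 (410) they were 677 and 759 in the mice of lower and higher number. Along Ahsg (291) they were 479 and 1464 in the mice of lower and higher number and 179 without the 8 mice. Along Hrg (339) they were 862 with ranks and 734 in the mice of higher number. Along Ces1c (294) the count was 1409 in the mice of higher number. The cause was not tested. The alternatives that leave out mice by their values or numbers were chosen after seeing the data. The balance of rising and falling features turned along Fabp1, with 283 rising and 229 falling over all mice, 343 and 646 with ranks, 313 and 474 without the arrays of outlying spread, 268 and 360 with arrays scaled to one SD, and 304 and 429 without the 8 mice. It also turned along Hrg with ranks (306 rising, 556 falling), and in the mice of higher number along Ahsg (698 and 766) and Ces1c (618 and 791). Along Fgg, with 368 rising and 386 falling over all mice, more rose than fell with the spline (303 and 6), in the mice of lower number (328 and 23) and of higher number (472 and 420), and outside numbers 211 to 270 and 351 to 362 (358 and 354).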
